A study of Saccharomyces cerevisiae with 24 samples.

Results

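The genes described here are those of the budding yeast Saccharomyces cerevisiae whose RNA moved in the same direction under caffeine in each of 4 strains. RNA was sequenced from S288C (the haploid laboratory strain BY4742), YPS (YPS606), Y55 and UWOP (UWOPS87_2421). The 12 caffeine libraries came from cultures in synthetic defined medium exposed to 20 mM caffeine for 4 h, and the 12 libraries without caffeine from the same strains in the same medium, with 3 libraries per strain and condition and RNA taken at an optical density of 0.4. The expression of a gene was tested with strain as a block, and a gene was counted as shared when it passed an adjusted p of 0.05 and its log2 fold change had the same sign in S288C, YPS, Y55 and UWOP. Of 6400 genes tested, 3027 were shared, 1500 of them higher and 1527 lower in caffeine. A stricter set, called the core below, held the 493 genes called in the same direction by the contrast of each strain. Of these, 319 were higher and 174 lower. The contrasts came from a fit that held the libraries of all strains together. With each strain fitted on its own libraries alone, 66 genes were called higher in every strain and 15 lower. All 493 core genes were also shared genes.

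Caffeine is a methylxanthine that inhibits the TORC1 kinase complex, through which yeast matches ribosome production and nitrogen use to the nutrients at hand. It also inhibits cyclic AMP phosphodiesterases and activates the cell wall integrity pathway, in which the kinase Slt2 acts through the transcription factor Rlm1. When TORC1 is inhibited, ribosomal protein genes are turned down, and the GATA factors Gln3 and Gat1 turn on genes for poor nitrogen sources while the Rtg1 and Rtg3 factors turn on the retrograde genes that feed glutamate synthesis.

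The total of estimated counts was between 10429068 and 29524968 in caffeine libraries and between 8714049 and 29303365 in libraries without caffeine. Levels are given as CPM, estimated counts scaled to a common library size. The scaling factors lay between 0.969 and 1.26 in caffeine libraries and between 0.863 and 0.961 in the others, and ribosomal protein genes took 8.66% to 17.9% of the counts in caffeine and 14.3% to 22.2% without. In 4 groups the lowest correlation of log2 CPM between 2 libraries was below 0.98. In each of these the library with the lowest mean correlation to its group is said to stand apart. These were S288C library 37 and Y55 library 39 with caffeine, and YPS library 42 and Y55 library 43 without. For Y55 without caffeine the mean correlation was 0.9674 for library 43, 0.9677 for library 35 and 0.976 for library 27. Library 35 was thus about as far from its group as library 43, but was not counted among the 4. Between Y55 and UWOP, 4 genes were called in caffeine and 4 without caffeine, the same R0010W, R0020C, R0030W and R0040C of the 2-micron plasmid each time, and 0 genes passed the edgeR test for a different caffeine response between these strain labels (156 genes had an unadjusted p under 0.05). URA3 went against a single genotype within both labels, at 0.0414 to 2.25 CPM in Y55 libraries 27 and 31 and UWOP libraries 28 and 32 and at 26.0 to 171 CPM in the other 8 libraries of these strains. The library numbers form 3 runs of 8 (25 to 32, 33 to 40 and 41 to 48), each with 1 library of every group, and the 4 libraries with URA3 near 0 are the Y55 and UWOP libraries of the first run. The labels do not say what a run is, and a fit with the runs as a term called 3634 genes with strain as a block, 3042 shared and 474 core. Since Y55 and UWOP could not be told apart outside the plasmid, core counts with their libraries combined as 1 strain are given for the whole core and for the lists below whose number they change. Nothing in the labels says whether the 3 libraries of a group came from separate cultures, so p-values measure the spread between these samples, which may be technical.

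Across all genes, the strain-block test called 29.5% of the 6400 genes higher and 28.2% lower in caffeine, 1885 and 1802 genes. Among these 3687 genes, 660 did not have the same sign in each strain. Over all 6400 genes whatever their p, 3310 (51.7%) had the same sign in all 4 strains. The shared genes were not called evenly in the single strains, since 313 were called in 0 of the 4 contrasts, 723 in 1, 845 in 2, 653 in 3 and 493 in all 4. The contrasts within a strain called 27.5% of genes higher and 25.0% lower in S288C, 20.5% and 20.0% in YPS, 8.64% and 5.77% in Y55, and 14.7% and 13.0% in UWOP. Y55 thus had the fewest called genes of the 4 strains. With Y55 and UWOP treated as 1 strain, 1228 genes were called in the same direction in each of 3 strains, 620 higher and 608 lower, and these held 492 of the 493 core genes. Without the 4 libraries that stood apart the core had 920 genes, which held 463 of the 493. Without the 4 libraries with URA3 near 0, which left 2 libraries per group in Y55 and UWOP, it had 171, of which 170 were among the 493. Without Y55 library 47 it had 279, and 211 genes, 156 higher and 55 lower, belonged to the core whichever of the 24 libraries was left out.

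The core changes were larger upward than downward. Of the 319 core genes that were higher, 98 were at least 2-fold higher in every strain and 25 at least 4-fold, against 10 and 2 of the 174 that were lower. The median log2 fold change of the higher core genes was 1.17 in S288C, 1.09 in YPS, 1.0 in UWOP and 0.80 in Y55, and that of the lower core genes was -0.81 in S288C, -0.66 in YPS, -0.61 in UWOP and -0.47 in Y55, beside medians over all genes between -0.01 and 0.03. S288C had the largest change of the 4 strains for 259 core genes, YPS for 122, UWOP for 88 and Y55 for 24, and Y55 had the smallest change for 271. In 277 of the higher and 149 of the lower core genes the caffeine libraries did not overlap the libraries without caffeine in any of the 4 strains, which held for 6.17% of all genes upward and 4.80% downward. These figures describe the selection and are not a test of it, since the same values chose the genes. Just inside the threshold of the strain-block test stood YHR217C (log2 fold change 0.72, adjusted p = 0.0499, 0 to 2.64 CPM in caffeine and 0 to 1.90 CPM without), and just outside it LSM2 (log2 fold change -0.33, adjusted p = 0.0501, 10.7 to 28.4 CPM in caffeine and 17.3 to 36.4 CPM without).

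Genes chosen in some strains were then followed in a strain that had not chosen them, with each strain fitted on its own 6 libraries. The genes called higher in YPS, Y55 and UWOP alone numbered 89, and 66 of them (74.2%) were called higher in S288C, against 29.0% of all genes. Of 22 genes called lower in those 3 strains, 15 (68.2%) were called lower in S288C, against 25.3% of all genes. For YPS, 66 of 68 genes chosen in the other strains were called higher (97.1%, against 16.8% of all genes). Of 16 lower genes, 15 were called lower (93.8%, against 14.4%). These 66 and 15 genes are the ones already counted for S288C, namely those called in the own fit of every strain. The shares for S288C and YPS are thus not separate tests. Both had Y55, whose own fit called few genes, and UWOP among the choosing strains. Since Y55 and UWOP libraries were hardly distinguishable, these 2 strains were followed with genes chosen in S288C and YPS only. Of 832 genes higher in S288C and YPS, 581 (69.8%) were called higher in UWOP, against 22.6% of all genes, and of 659 lower genes, 488 (74.1%) were called lower, against 21.0%. The Y55 fit on its own called 1.48% of genes higher and 0.375% lower. It called 66 of the 832 (7.93%) and 15 of the 659 (2.28%), again the same 66 and 15 genes. In sign alone, 85.8% of the 832 were higher in Y55, against 48.2% of all genes. Of the 659, 95.6% were lower there, against 51.0% of all genes. Called in the opposite direction were 3 of the 89 and 1 of the 22 in S288C, and 9 of the 832 and 4 of the 659 in UWOP. In YPS and Y55 0 were. The shares called in the held-out strain are drawn in the plot of held-out strains. No p is given for them, because genes are not independent replicates.

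**Figure D1:**
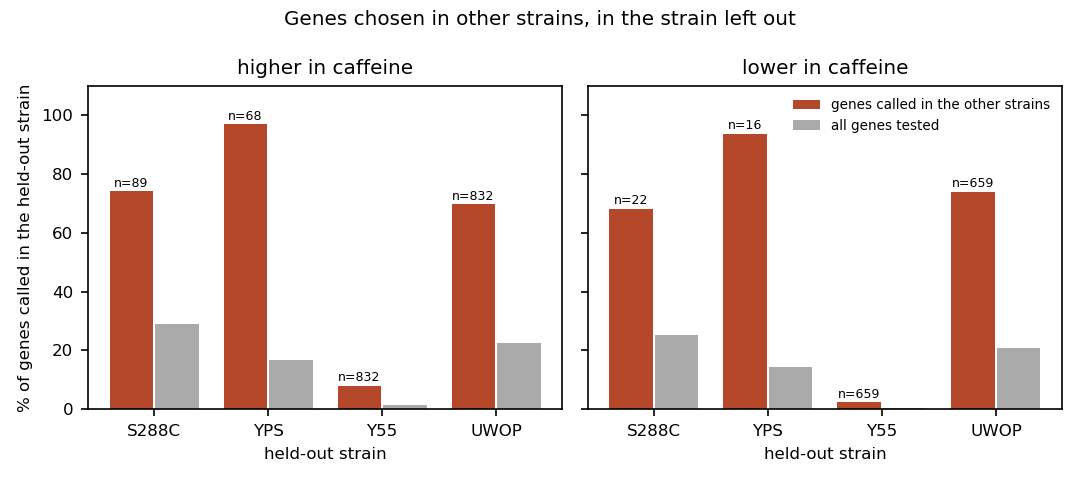
Bars give the percentage of genes called in the held-out strain (y axis) for genes called in the other strains (red, number above the bar) and for all genes tested (grey), for genes higher (left) and lower (right) in caffeine; genes for Y55 and UWOP were chosen in S288C and YPS only. Each red bar is taller than its grey bar, with 74.2% against 29.0% for higher genes in S288C and 7.93% against 1.48% in Y55.

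The 12 leading genes that rose, by their smallest change over the strains, are given first. SNZ1, which makes the vitamin B6 ring, stood at 431, 787 and 384 CPM in S288C, 412, 416 and 329.9 CPM in YPS, 173, 100.1 and 234 CPM in Y55 and 245, 189 and 224 CPM in UWOP in caffeine, against 14.4, 15.9 and 18.4 CPM in S288C, 13.5, 14.3 and 14.4 CPM in YPS, 18.1, 16.3 and 13.6 CPM in Y55 and 18.1, 17.4 and 17.3 CPM in UWOP without caffeine. The lowest caffeine library thus stood above the highest library without caffeine (log2 fold change 4.22 ± 0.22, adjusted p = 1.43e-12). Its partner SNO1, transcribed from the same intergenic region on the other strand, was 8.07-fold higher, at 25.4 to 131 CPM in caffeine and 5.06 to 8.49 CPM without (log2 fold change 3.01 ± 0.18, adjusted p = 8.96e-12).

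Carnitine and propionate genes followed. YAT1, the outer mitochondrial carnitine acetyltransferase, had 281, 393 and 292 CPM in S288C, 50.5, 42.95 and 44.99 CPM in YPS, 46.5, 15.7 and 54.4 CPM in Y55 and 57.5, 130.1 and 51.8 CPM in UWOP in caffeine, against 2.23 to 7.44 CPM over the 12 libraries without it (log2 fold change 4.28 ± 0.36, adjusted p = 3.01e-09). S288C had the highest caffeine values, and the lowest was that of Y55 library 39, one of the libraries that stood apart. CRC1, the inner membrane carnitine carrier, ranged over 9.63 to 36.7 CPM in caffeine and 0.58 to 4.22 CPM without (log2 fold change 3.34 ± 0.25, adjusted p = 3.85e-10). PDH1, of the propionate-degrading methylcitrate pathway, had 34.3 to 116 CPM in caffeine and 3.96 to 21.1 CPM without, with log2 fold changes of 4.48 in S288C, 3.13 in YPS, 2.54 in UWOP and 1.85 in Y55. Both genes rose in each strain, by the smallest amount in Y55.

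One-carbon and amino acid breakdown genes were also among them. GCV2, the glycine decarboxylase subunit, had 348, 376 and 332 CPM in S288C, 656, 846 and 726 CPM in YPS, 352, 297 and 468 CPM in Y55 and 538, 441 and 538 CPM in UWOP in caffeine, against 45.04, 45.3 and 51.2 CPM in S288C, 25.1, 25.8 and 117 CPM in YPS, 54.5, 78.9 and 59.97 CPM in Y55 and 59.1, 50.02 and 55.9 CPM in UWOP without caffeine (log2 fold change 3.09 ± 0.22, adjusted p = 1.69e-10). The value of 117 CPM without caffeine came from YPS library 42, another library that stood apart. GCV1, the aminomethyltransferase of the same complex, was 5.19-fold higher (log2 fold change 2.38 ± 0.14, adjusted p = 7.24e-12). CHA1, which breaks down serine and threonine, had 92.6, 681 and 1630 CPM as the lowest, median and highest in caffeine and 23.2, 67.9 and 188 CPM without, and the groups overlapped across strains but not within any strain (log2 fold change 3.48 ± 0.26, adjusted p = 3.56e-10).

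DLD3, a retrograde gene that encodes a lactate dehydrogenase homologue, had the highest level per length of the 12 leading genes that rose, with a median of 1577 TPM, a unit scaled by length, in caffeine and 136 TPM without. It had 3977, 4993 and 3913 CPM in S288C, 2107, 2281 and 1903 CPM in YPS, 1825, 1103 and 2515 CPM in Y55 and 2635, 2680 and 2335 CPM in UWOP in caffeine, against 170.4 to 368 CPM in all libraries without caffeine (log2 fold change 3.34 ± 0.21, adjusted p = 2.53e-11). MCH4, a relative of monocarboxylate permeases (log2 fold change 2.55 ± 0.14, adjusted p = 3.11e-12), and the less studied genes YJL213W (log2 fold change 2.95 ± 0.23, adjusted p = 7.33e-10) and YOR338W (log2 fold change 4.14 ± 0.37, adjusted p = 6.38e-09) completed the 12. All 12 passed the test in every strain by the rule that named them.

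The 12 leading genes that fell had smaller changes. OLA1, an ATPase of the Obg family, had 297, 386 and 317 CPM in S288C, 344, 344 and 354 CPM in YPS, 381, 439 and 327 CPM in Y55 and 345, 305 and 329 CPM in UWOP in caffeine, against 1008, 1062 and 1071 CPM in S288C, 1084, 1016 and 779 CPM in YPS, 953, 832 and 936 CPM in Y55 and 1016, 965 and 1023 CPM in UWOP without caffeine (log2 fold change -1.50 ± 0.07, adjusted p = 6.59e-13). The highest caffeine library stood below the lowest library without caffeine. PDR12, the transporter that exports weak organic acids, fell to 64.5, 116 and 158 CPM (lowest, median, highest) in caffeine, against 195, 257 and 363 CPM without (log2 fold change -1.17 ± 0.10, adjusted p = 5.59e-09). TYE7, an activator of glycolytic genes, had 42.2 to 73.95 CPM in caffeine and 90.03 to 169 CPM without, with no overlap (log2 fold change -1.07 ± 0.06, adjusted p = 6.8e-12).

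HXT2, a high-affinity glucose transporter, had 380.3, 252 and 449 CPM in S288C, 358, 374 and 458 CPM in YPS, 238, 751 and 227 CPM in Y55 and 244, 165 and 236 CPM in UWOP in caffeine, against 612, 802 and 601 CPM in S288C, 2160, 1960 and 1370 CPM in YPS, 1152, 1002 and 1194 CPM in Y55 and 1325, 1278 and 1479 CPM in UWOP without caffeine (log2 fold change -1.81 ± 0.22, adjusted p = 5.97e-07). The Y55 value of 751 CPM was from library 39 and lay below the Y55 libraries without caffeine. TDH2, a glyceraldehyde-3-phosphate dehydrogenase gene, had log2 fold changes of -3.08 in S288C, -1.05 in YPS, -1.01 in UWOP and -0.82 in Y55. The others were FUR1 (log2 fold change -1.33 ± 0.15, adjusted p = 1.26e-07), which salvages uracil, PHD1 (log2 fold change -1.69 ± 0.23, adjusted p = 2.69e-06), an activator of filamentous growth, CSH1 (log2 fold change -0.92 ± 0.06, adjusted p = 1.69e-10), which makes inositolphosphorylceramides, NCE102 (log2 fold change -1.04 ± 0.13, adjusted p = 7.04e-07), a protein of membrane eisosomes, ILV3 (log2 fold change -1.10 ± 0.11, adjusted p = 2.93e-08), of branched amino acid synthesis, YGR035C (log2 fold change -1.10 ± 0.12, adjusted p = 1.17e-07), and MF(ALPHA)2 (log2 fold change -1.81 ± 0.23, adjusted p = 1e-06), which encodes alpha-factor.

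**Figure D2:**
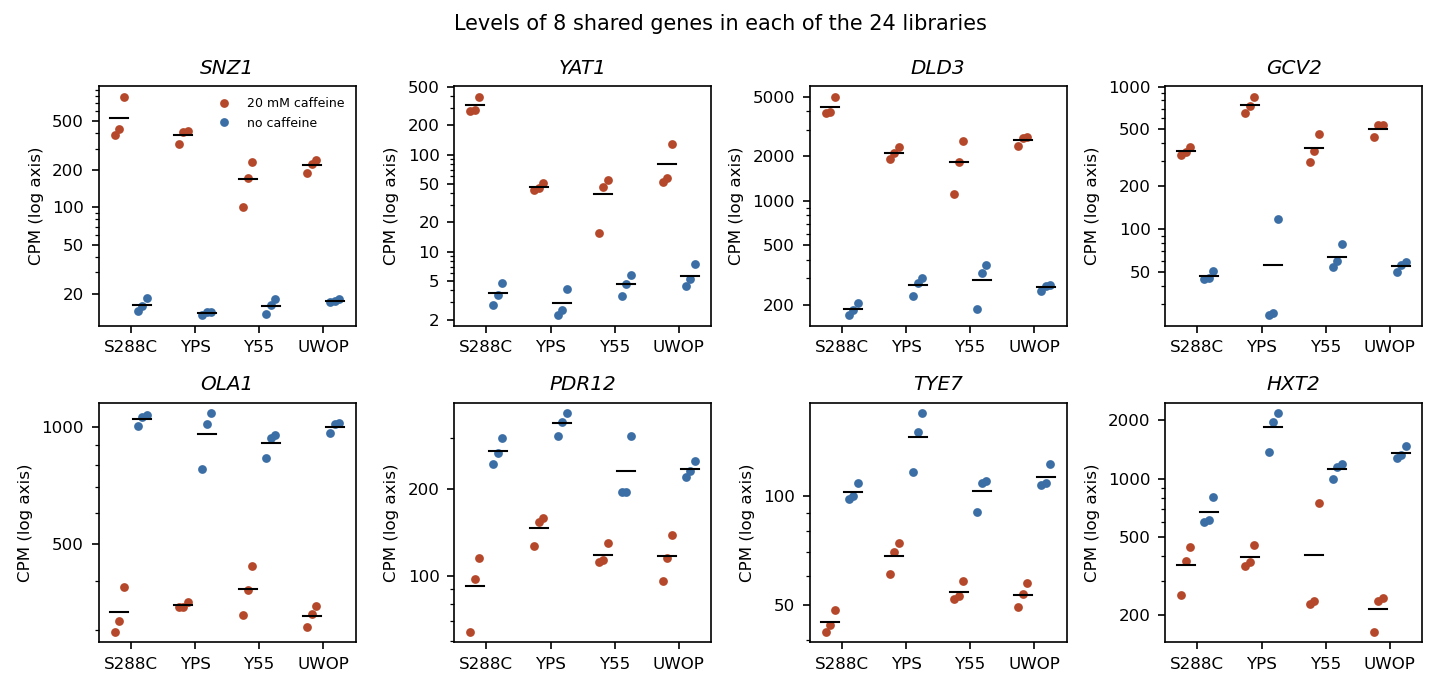
Each point is 1 library and each line the mean of 3, in CPM on a log axis, with caffeine (red) left of no caffeine (blue) in every strain, for 4 of the leading genes that rose and 4 that fell. The colours do not overlap within any strain, and SNZ1 stood between 100.1 and 787 CPM in caffeine and between 13.5 and 18.4 CPM without.

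Gene lists of known pathways were then counted over all 6400 genes, where 29.5% were called higher and 28.2% lower and the median log2 fold change was 0.01. Genes under nitrogen catabolite repression, which yeast keeps off while good nitrogen sources last, were mostly higher: 19 of 27 rose, 2 fell, and 13 belonged to the core (19 with Y55 and UWOP combined), with a median log2 fold change of 0.94. The ammonium permease MEP2 had 254, 199 and 224 CPM in S288C, 71.01, 68.5 and 66.5 CPM in YPS, 43.9, 15.8 and 58.4 CPM in Y55 and 88.98, 59.3 and 60.9 CPM in UWOP in caffeine, against 19.8, 20.2 and 21.4 CPM in S288C, 9.30, 10.2 and 17.4 CPM in YPS, 12.8, 23.3 and 9.77 CPM in Y55 and 13.5, 14.2 and 11.2 CPM in UWOP without caffeine (log2 fold change 2.45 ± 0.24, adjusted p = 2.23e-08). Its Y55 libraries overlapped, since library 39 had 15.8 CPM in caffeine and library 35 had 23.3 CPM without. The NAD-dependent glutamate dehydrogenase GDH2 (log2 fold change 1.52 ± 0.10, adjusted p = 4.68e-11) and the allantoicase DAL2 (log2 fold change 1.21 ± 0.07, adjusted p = 1.14e-11) were higher in every strain, and the log2 fold changes of DAL2 were 1.16 in S288C, 1.20 in YPS, 1.26 in UWOP and 1.21 in Y55. The core also held the repressor DAL80 (log2 fold change 3.26), the activator GAT1 (log2 fold change 1.28), DAL1, DAL3, DAL4, DAL7, DCG1, GLN1, UGA3 and UGA4. The proline permease PUT4 did not follow, and is described further down.

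Targets of the cell wall integrity pathway had the highest median of the lists of 10 or more genes, 1.30: 19 of 24 rose, 0 fell, 5 were not called, and 15 were in the core (17 with Y55 and UWOP combined). PST1, a wall protein anchored by a glycolipid, had 266, 335 and 333 CPM in S288C, 879.8, 1113 and 1017 CPM in YPS, 741, 390.3 and 862 CPM in Y55 and 699, 822 and 578 CPM in UWOP in caffeine, against 94.8, 121 and 95.9 CPM in S288C, 166, 149 and 267 CPM in YPS, 114, 251 and 149 CPM in Y55 and 131, 129 and 136 CPM in UWOP without caffeine (log2 fold change 2.08 ± 0.15, adjusted p = 3.98e-10). S288C had the lowest caffeine values and the smallest change. The kinase gene SLT2 itself had 244 to 873 CPM in caffeine and 99.8 to 191 CPM without, with no overlap (log2 fold change 1.90 ± 0.16, adjusted p = 2.35e-09), and RLM1, the pathway's transcription factor, had 106 to 282 CPM in caffeine and 52.8 to 105 CPM without (log2 fold change 1.22 ± 0.13, adjusted p = 1.27e-07). SRL3 (log2 fold change 2.30 ± 0.25, adjusted p = 9.04e-08) and the wall protein gene NCW2 (log2 fold change 2.11 ± 0.25, adjusted p = 3.97e-07) were also in the core. A list of 14 sensors, kinases and cofactors upstream of these targets did not include SLT2, which was itself in the core. Of these 14, 4 rose and 5 fell, and none was in the core (1, lower, with Y55 and UWOP combined). The sensors WSC2 (log2 fold change -0.25 ± 0.05, adjusted p = 0.000379) and WSC3 (log2 fold change -0.48 ± 0.12, adjusted p = 0.00167) and the G1 regulator SWI4 (log2 fold change -0.36 ± 0.09, adjusted p = 0.00165) were called lower, although WSC3 was at 0.27 in S288C.

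Of 138 ribosomal protein genes 133 fell and 0 rose, 131 were shared, and the median log2 fold change was -0.75. With Y55 and UWOP combined, 112 of them were core genes, all lower. With Y55 on its own the core held 1, RPS22A, since 136 were called lower in S288C, 120 in YPS, 98 in UWOP and 1 in Y55, and the test of Y55 against UWOP called 0 of all genes for a different caffeine response. Medians were -1.32 in S288C, -0.77 in YPS, -0.63 in UWOP and -0.31 in Y55, and 67 of the 138 passed the test for a difference between strains. RPL30 had 523, 874 and 528 CPM in S288C, 1135, 1012 and 1104 CPM in YPS, 1241, 1241 and 1141 CPM in Y55 and 1079, 901 and 1108 CPM in UWOP in caffeine, against 1714, 2281 and 1996 CPM in S288C, 3245, 2716 and 1540 CPM in YPS, 1776, 1620 and 1792 CPM in Y55 and 2339, 1995 and 1920 CPM in UWOP without caffeine (log2 fold change -1.10 ± 0.13, adjusted p = 6.08e-07). The groups did not overlap in any strain. RPS22A (log2 fold change -1.03 ± 0.12, adjusted p = 3.97e-07) and RPL31B (log2 fold change -1.08 ± 0.15, adjusted p = 3.06e-06) fell likewise, and many ribosomal protein genes have a near-identical copy with which reads are divided. Ribosome biogenesis genes, which assemble these proteins with rRNA, were divided: with strain as a block 4 of 63 rose, 4 fell, 55 were not called, and the median was -0.00. Within the strains 19 were called lower and 3 higher in S288C (median -0.16), 6 lower and 0 higher in YPS (median -0.11), 1 lower and 3 higher in UWOP (median 0.08) and 0 lower and 3 higher in Y55 (median 0.19). With Y55 and UWOP combined 0 were called lower and 15 higher (median 0.13). The interaction was called for 13 of the 63, against 26.4% of all genes. NOP1, the fibrillarin gene, was lower with log2 fold changes of -0.70 in S288C, -0.84 in YPS, -0.35 in UWOP and -0.01 in Y55, and UTP22 (log2 fold change -0.56 ± 0.13, adjusted p = 0.00088) and NOP16 (log2 fold change -0.36 ± 0.10, adjusted p = 0.00374) were lower as well. Of 21 genes of RNA polymerases I and III 4 rose and 3 fell, which were RPC17 (log2 fold change -0.72 ± 0.10, adjusted p = 3.26e-06), RPC31 (log2 fold change -0.56 ± 0.09, adjusted p = 1.65e-05) and RPC37 (log2 fold change -0.33 ± 0.08, adjusted p = 0.00193). In S288C 10 of the 21 were called lower and 2 higher (median -0.32), against 3 and 1 in YPS, 2 and 2 in UWOP and 0 and 0 in Y55, and with Y55 and UWOP combined 2 were core genes that fell.

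**Figure D3:**
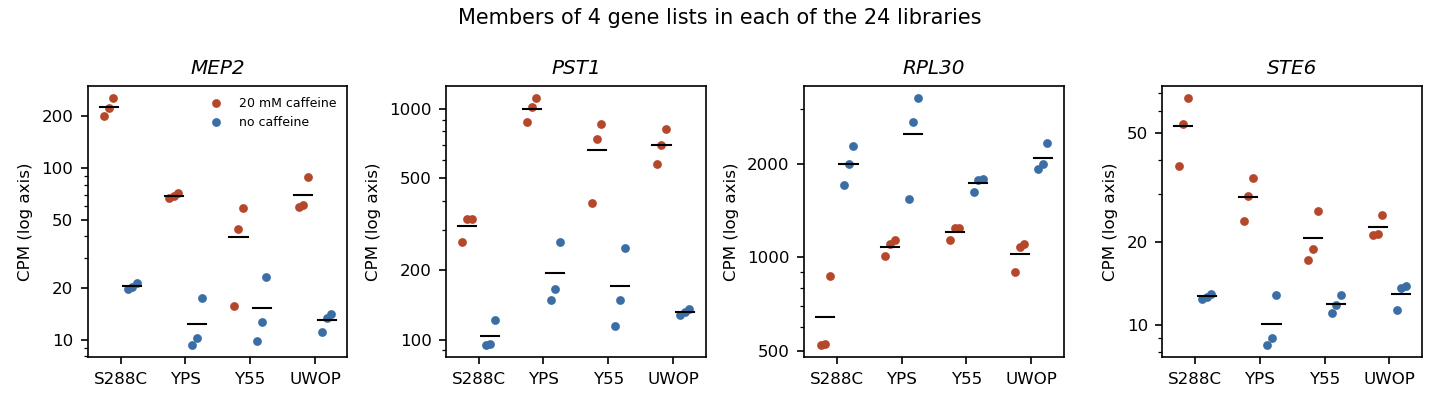
Each point is 1 library and each line the mean of 3, in CPM on a log axis, with caffeine (red) left of no caffeine (blue), for a nitrogen gene (MEP2), a cell wall gene (PST1), a ribosomal protein gene (RPL30) and an a-cell gene (STE6). MEP2, PST1 and STE6 were higher and RPL30 lower in caffeine in each strain, and only the Y55 libraries of MEP2 overlapped.

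Of 28 purine and one-carbon genes 17 rose and 3 fell, with 5 and 3 of these in the core, and the list's median was 0.52, with 0.05 in S288C, 0.48 in YPS, 0.71 in UWOP and 0.81 in Y55. ADE17, which completes the purine ring, had 242, 559 and 237 CPM in S288C, 947, 1046 and 1067 CPM in YPS, 1072, 978 and 913 CPM in Y55 and 979.9, 933 and 1149 CPM in UWOP in caffeine, against 228, 293 and 279 CPM in S288C, 43.2, 39.7 and 601 CPM in YPS, 76.7, 159 and 47.9 CPM in Y55 and 91.8, 51.7 and 61.2 CPM in UWOP without caffeine (log2 fold change 2.50 ± 0.48, adjusted p = 0.000137). The S288C libraries overlapped, and 601 CPM was from YPS library 42. The 3 that fell were IMD3, IMD4 and APT1, of guanine nucleotide synthesis and adenine salvage. Of 42 amino acid synthesis genes under the activator Gcn4 19 rose and 10 fell (7 and 3 in the core, median 0.10), with HIS4 at 346 to 679.7 CPM in caffeine and 74.1 to 505 CPM without (log2 fold change 1.29 ± 0.19, adjusted p = 6.43e-06). GCN4 itself, which is controlled mainly in translation, was at 897 to 1189 CPM in caffeine and 846 to 1170 CPM without, and was not called (adjusted p = 0.418). Of 27 sulfate and methionine genes 9 rose and 9 fell, the sulfate permease SUL1 (log2 fold change 1.34 ± 0.11, adjusted p = 3.93e-09) and the reductase MET16 (log2 fold change 0.96 ± 0.09, adjusted p = 6.38e-09) among the core and the methionine permease MUP1 (log2 fold change -1.91 ± 0.26, adjusted p = 2.2e-06) in the other direction.

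Sequences before the start codon of genes named in this report are shown with matches to known factor sites. CHA1, shown with the GATA site, is not a member of the nitrogen list. Each is read from the R64 genome in the direction of the gene, with the match nearest the start codon in capitals. The first 4 hold the Gcn4 and Bas1 site TGACTC (or its reverse complement), which is in the 500 bases before the start codon of 22.4% of core genes that rose, 10.3% of core genes that fell and 12.7% of the 5853 genes that had such a window, and in 76.2% of the Gcn4 list and 67.9% of the purine list.
SNZ1 (chrXIII:458221-458242, plus strand): tttcttcaTGACTCtgacacac
GCV2 (chrXIII:637253-637274, plus strand): tctcagagGAGTCAtcgaagtc
HIS4 (chrIII:68519-68540, minus strand): atgcacagTGACTCacgttttt
ADE17 (chrXIII:509444-509465, minus strand): aaatgaatTGACTCctctcata
The next 3 hold the GATA factor site GATAAG, found in 77.8% of nitrogen catabolite repression genes, 27.6% of core genes that rose, 20.6% of those that fell and 22.9% of all windows.
MEP2 (chrXIV:357212-357233, plus strand): ccctgtgcCTTATCaatgaagt
DAL2 (chrIX:410620-410641, plus strand): gaattagcGATAAGataaaaac
CHA1 (chrIII:16998-17019, minus strand): tgcgatgaGATAAGataaaagg
The next 3 hold the Rlm1 pattern TANNNNTAG, loose enough to be in 65.4% of all windows, and found in 91.7% of cell wall integrity targets, 72.4% of core genes that rose and 63.0% of those that fell.
PST1 (chrIV:563386-563410, plus strand): gataaacaTATAAATAGcgtgcata
SRL3 (chrXI:611389-611413, plus strand): caggagccTAAGAATAGagaataag
SLT2 (chrVIII:170560-170584, minus strand): ttcagtgtTAAAAATAGaaactgaa
The last 3 hold the R box GTCAC of the retrograde factors (51.3% of core genes that rose, 35.2% of those that fell, 42.5% of all windows) and the pheromone response element TGAAACA (7 of 7 a-cell genes, 11.96% of all windows).
DLD3 (chrV:16204-16224, plus strand): aaatctaaGTCACgcgcggaa
CIT2 (chrIII:122512-122532, minus strand): tgaaattgGTGACgttaatct
STE6 (chrXI:46442-46464, minus strand): tatacaatTGTTTCAgatatgaa

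These matches are of letters on either strand and say nothing of binding. TGACTC and GTCAC can share bases, as can GTCAC and CACGTG, and divergent genes can share a window, as SNZ1 and SNO1 do. With shared genes in place of the core the shares lay closer to those of all windows, at 16.3% of genes that rose and 10.9% of genes that fell for TGACTC and 25.6% and 19.3% for GATAAG. A motif of ribosome biogenesis genes, GATGAG, was in 93.7% of their windows and in 28.0% of all windows, against 19.9% for core genes that rose and 18.2% for those that fell. The stress element AGGGG was in 31.4% of windows of core genes that rose, 35.8% of those that fell and 34.3% of all windows. The cell cycle box ACGCGT was in 3.51% of windows of shared genes that rose, 8.58% of those that fell and 5.50% of all windows. The Yap1 element TTACTAA was in 12.5% of windows of core genes that rose and 11.96% of all windows, and the drug response element TCCGNGGA of Pdr1 in 3.21% and 2.94%. The proteasome element GGTGGCA of Rpn4 was in 3.85% of windows of core genes that rose and 4.46% of all windows, the ribosomal RNA processing element AAATTTT in 31.1% and 34.4%, and the E-box CACGTG in 5.13% and 6.24%.

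Genes of the tricarboxylic acid cycle and the retrograde response included 8 that rose and 4 that fell of 22, with 4 in the core, among them DLD3 and the citrate synthase CIT1 (log2 fold change 1.68 ± 0.17, adjusted p = 4.08e-08). CIT2, the peroxisomal citrate synthase and the usual readout of retrograde signalling, had 2497, 2080 and 2535 CPM in S288C, 1376, 1407 and 1141 CPM in YPS, 626, 547 and 801 CPM in Y55 and 887, 941 and 698 CPM in UWOP in caffeine, against 60.9, 70.2 and 86.00 CPM in S288C, 186, 208 and 30.1 CPM in YPS, 515, 102 and 582 CPM in Y55 and 511, 570.5 and 522 CPM in UWOP without caffeine (log2 fold change 2.33 ± 0.52, adjusted p = 0.00062). It was shared, but its changes in Y55 and UWOP were not called (adjusted p = 0.362 and 0.353, interaction adjusted p = 0.000413), and 30.1 CPM came from YPS library 42. Hexose transport and glucose signalling genes were more often lower than higher, with 9 of 20 down and 3 up (median -0.41), led by HXT2 and the hexokinase HXK2 (log2 fold change -1.14 ± 0.11, adjusted p = 3.01e-08), while ADR1, an activator of glucose-repressed genes, was higher (log2 fold change 1.98 ± 0.17, adjusted p = 2.89e-09). Among 32 respiratory chain and ATP synthase genes 13 fell and 6 rose, with CYC1 (log2 fold change -0.85 ± 0.10, adjusted p = 4.71e-07) and COX8 (log2 fold change -0.64 ± 0.05, adjusted p = 3.07e-09) in the core and ATP20 (log2 fold change 0.59 ± 0.13, adjusted p = 0.000361) higher.

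Genes of the kinase pathways that caffeine acts on follow. In the TORC1 list 10 of 21 rose and 2 fell, with a median of 0.10 and none in the core. TOR1 itself had 42.3 to 105 CPM in caffeine and 41.5 to 73.3 CPM without, and its log2 fold change of 0.18 (adjusted p = 0.0335) was not of one sign over the strains, at 0.41 in S288C, 0.20 in YPS, 0.10 in UWOP and -0.02 in Y55. That call was lost without S288C library 25, 29, 33, 41 or 45 or YPS library 38 or 42, with adjusted p between 0.0533 and 0.0657. It was also lost without the strain term (adjusted p = 0.298). Without all S288C, YPS or UWOP libraries the adjusted p of TOR1 was 0.224, 0.116 and 0.0611. The TORC1 subunit LST8 (log2 fold change 0.40 ± 0.10, adjusted p = 0.00142) and the kinase NPR1 (log2 fold change 0.28 ± 0.05, adjusted p = 1.68e-05) were shared, as was SLM4 (log2 fold change 0.27 ± 0.05, adjusted p = 0.000145). Both cyclic AMP phosphodiesterases were higher. The high-affinity enzyme PDE2 had 105, 70.2 and 137 CPM in S288C, 129, 163 and 149 CPM in YPS, 80.1, 59.2 and 101 CPM in Y55 and 108, 73.4 and 91.7 CPM in UWOP in caffeine, against 40.9 to 78.95 CPM without (log2 fold change 0.86 ± 0.10, adjusted p = 2.77e-07), and was in the core. The low-affinity enzyme PDE1 was 3.08-fold higher (log2 fold change 1.62 ± 0.20, adjusted p = 6.34e-07), though its change in Y55 was not called (adjusted p = 0.051). RAS1, a GTPase upstream of adenylate cyclase, was lower (log2 fold change -1.24 ± 0.11, adjusted p = 9.12e-09). In all, 7 of 20 genes of this list rose and 7 fell.

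The stress lists differed from each other. Of 34 general stress genes under Msn2 and Msn4, 6 rose and 10 fell, none was in the core (5, all lower, with Y55 and UWOP combined), and the medians of the strains had different signs, at 0.15 in S288C, -0.33 in YPS, 0.29 in UWOP and -1.07 in Y55. The interaction was called for 4 of the 34, against 26.4% of all genes, and 0 were called in either direction in UWOP. With Y55 and UWOP combined the median was -0.52. HSP12, a membrane-protecting stress protein, had 5.29, 36.3 and 89.2 CPM as the lowest, median and highest in caffeine and 1.15, 5.84 and 55.7 CPM without (log2 fold change 2.31 ± 0.55, adjusted p = 0.00112), and only its S288C change was called, as for the chaperone HSP26 (log2 fold change 1.94 ± 0.52, adjusted p = 0.00293), while the interaction was not called for HSP12 or HSP26 (adjusted p = 0.0503 and 0.0817). GSY1, a glycogen synthase, was lower (log2 fold change -2.36 ± 0.50, adjusted p = 0.000372), with -0.09 in UWOP. Its 3 libraries without caffeine varied widely in YPS (mean 393 CPM, standard deviation 403) and Y55 (mean 306 CPM, standard deviation 441). In S288C the mean was 393 CPM and the standard deviation 74.1. MSN4 rose (log2 fold change 0.79 ± 0.10, adjusted p = 5.74e-07) and SFP1, an activator of ribosomal protein genes, changed by 0.22 (adjusted p = 0.00427), and MSN2 changed by 0.21 (adjusted p = 0.00979). Of 20 chaperone genes of Hsf1, 9 rose and 2 fell with strain as a block. Within the strains 12 were called higher and 0 lower in S288C (median 0.80), 10 and 0 in YPS (median 0.51), 0 and 5 in UWOP (median -0.15) and 1 and 2 in Y55 (median -0.19), and the interaction was called for 12 of the 20. BTN2 stood at 4.77 in S288C, 3.0 in YPS, 1.40 in UWOP and 0.35 in Y55, and SSA3 (log2 fold change 1.82 ± 0.35, adjusted p = 0.000137) and SSA4 (log2 fold change 1.14 ± 0.43, adjusted p = 0.0269) were called higher in S288C and YPS and not in Y55 or UWOP (interaction adjusted p = 0.00374 for SSA3 and 0.00097 for SSA4). The strain-block call of SSA4 was lost without S288C library 25, 33 or 41 or YPS library 26, with adjusted p between 0.0504 and 0.0676. It was also lost without all S288C libraries (adjusted p = 0.185) and without all YPS libraries (adjusted p = 0.176). Genes of Yap1 rose in 7 and fell in 6 of 19 cases, with the glutathione transferase GTT2 (log2 fold change 1.11 ± 0.13, adjusted p = 2.98e-07) and the exporter ATR1 (log2 fold change 0.69 ± 0.09, adjusted p = 2.62e-06) in the core and SOD1 (log2 fold change -0.60 ± 0.11, adjusted p = 0.000111) lower. Of 13 genes of the unfolded protein response 2 rose and 7 fell, with SIL1 (log2 fold change -0.57 ± 0.07, adjusted p = 5.62e-07) in the core, PDI1 (log2 fold change -0.48 ± 0.08, adjusted p = 5.36e-05) lower and ERO1 (log2 fold change 0.46 ± 0.11, adjusted p = 0.000794) higher. Of 34 genes of the proteasome list 17 fell, among them PUP3 (log2 fold change -0.48 ± 0.10, adjusted p = 0.000178) and RPN3 (log2 fold change -0.35 ± 0.07, adjusted p = 0.000399), and 1, the regulator RPN4 (log2 fold change 1.05 ± 0.24, adjusted p = 0.00068), rose. Within the strains 20 were called lower in S288C, 1 in YPS, 1 in UWOP and 0 in Y55. The interaction was called for 4 of the 34, against 26.4% of all genes, and without the UWOP libraries the strain-block count was 11 in place of 18.

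Drug efflux genes of Pdr1 were divided, with 8 of 19 up and 5 down and a median of 0.02. PDR5, the main drug pump, had 1888 to 5299 CPM in caffeine and 1752 to 5875 CPM without and was not called (adjusted p = 0.426), nor was YOR1 (adjusted p = 0.794). SNQ2, a pump linked to caffeine resistance, changed by 0.36 (adjusted p = 0.0181) but not with one sign, at 0.75 in S288C, 0.50 in YPS, -0.01 in UWOP and 0.18 in Y55. PDR10 (log2 fold change 1.78 ± 0.28, adjusted p = 1.18e-05) and the sterol importer AUS1 (log2 fold change 1.39 ± 0.12, adjusted p = 6.57e-09) were higher, and AUS1 was in the core.

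Histone and cyclin genes were mostly called lower. All 10 histone genes fell with strain as a block, 6 of them were shared and 3 were in the core (median -0.46), including the variant HTZ1 (log2 fold change -0.49 ± 0.06, adjusted p = 8.68e-07). Within the strains 10 were called lower in S288C (median -1.07), 3 in YPS (-0.06), 7 in UWOP (-0.43) and 6 in Y55 (-0.41). The interaction was called for 8 of the 10, against 26.4% of all genes. The linker histone HHO1 fell (log2 fold change -0.50 ± 0.12, adjusted p = 0.00121) but stood at 0.00 in YPS. Of 13 genes for cyclins and inhibitors of the cyclin-dependent kinase 9 fell and 1 rose, with CLB1 and CLB3 in the core (CLB1 log2 fold change -0.63 ± 0.09, adjusted p = 4.93e-06), and CLB5 (log2 fold change -0.60 ± 0.14, adjusted p = 0.000743) and CLN1 (log2 fold change -0.57 ± 0.08, adjusted p = 5.19e-06) lower. Genes of daughter cell separation rose in 4 and fell in 4 of 11 cases, and the septum-degrading chitinase CTS1 had log2 fold changes of -0.32 in S288C, 1.08 in YPS, 1.79 in UWOP and 1.46 in Y55, DSE1 of -0.33 in S288C, 1.56 in YPS, 1.59 in UWOP and 1.12 in Y55 and DSE2 of 0.16 in S288C, 1.01 in YPS, 2.37 in UWOP and 1.85 in Y55. S288C had the lowest change of the 4 strains for all 3 genes.

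The core counts of the other lists with Y55 and UWOP combined were 6 in place of 3 for the cyclic AMP list, 6 in place of 1 for the unfolded protein response, 4 in place of 2 for drug efflux, 8 in place of 4 for sulfate and methionine, 8 in place of 4 for ergosterol synthesis, 6 in place of 3 for autophagy, 13 in place of 10 for the Gcn4 list, 6 in place of 4 for hexose transport and 5 in place of 4 for the tricarboxylic acid cycle. The calcineurin, Hsf1, phosphate, alpha-cell, haploid and meiosis lists each gained 1 core gene. The combined core genes of the unfolded protein, calcineurin, alpha-cell and haploid lists all fell in caffeine. Smaller lists gave the following counts with strain as a block. In autophagy 13 of 37 rose and 3 fell, with ATG11 (log2 fold change 1.34 ± 0.14, adjusted p = 6.96e-08) and ATG22 (log2 fold change 0.95 ± 0.10, adjusted p = 4.11e-08) in the core and ATG5 (log2 fold change 0.97 ± 0.18, adjusted p = 9.59e-05) shared. In ergosterol synthesis 4 of 20 rose and 8 fell, with ERG1 (log2 fold change 0.64 ± 0.07, adjusted p = 2.88e-07) higher and ERG10 (log2 fold change -0.68 ± 0.06, adjusted p = 1.26e-08) and ERG24 (log2 fold change -0.49 ± 0.06, adjusted p = 7.69e-07) lower, all in the core. In the calcineurin list 6 of 12 rose and 2 fell, with CMK2 (log2 fold change 1.25 ± 0.27, adjusted p = 0.000378), RCN1 (log2 fold change 1.05 ± 0.23, adjusted p = 0.000408) and PMC1 (log2 fold change 0.81 ± 0.22, adjusted p = 0.00316) higher. In S288C 5 of the 12 were called higher and 2 lower, and in YPS 4 and 3. In UWOP 0 were called higher and 2 lower, and in Y55 0 and 1. The interaction was called for CMK2, RCN1 and PMC1, whose log2 fold changes in Y55 were 0.07, 0.18 and -0.06. In phosphate starvation 8 of 17 rose and 1 fell, with PHM8 (log2 fold change 1.88 ± 0.27, adjusted p = 3.8e-06), PHO84 (log2 fold change 0.74 ± 0.18, adjusted p = 0.00169) and PHO8 (log2 fold change 0.35 ± 0.12, adjusted p = 0.017) higher. In iron uptake 6 of 18 rose and 0 fell, with FRE5 (log2 fold change 0.82 ± 0.07, adjusted p = 6.04e-09) in the core and FIT2 (log2 fold change 0.79 ± 0.20, adjusted p = 0.00174) and FIT3 (log2 fold change 0.78 ± 0.26, adjusted p = 0.0123) higher. This count was 13, 10 up and 3 down, without the libraries that stood apart, and 3 without the UWOP libraries.

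Genes of the opposite mating type rose. All 24 libraries had the RNA of alpha cells, with MF(ALPHA)1 at 399 to 1154 CPM in caffeine and 1061 to 1475 CPM without, and the a-factor gene MFA1 at 0 to 2.24 CPM in caffeine and 0 to 0.158 CPM without. All 7 a-cell genes were called higher, 6 of them shared and 4 in the core (STE2, STE6, BAR1 and AGA2, and 5 genes with Y55 and UWOP combined), with a median log2 fold change of 2.44. The a-factor exporter STE6 had 54.1, 37.9 and 66.8 CPM in S288C, 23.95, 34.2 and 29.6 CPM in YPS, 18.8, 17.2 and 25.9 CPM in Y55 and 25.2, 21.5 and 21.3 CPM in UWOP in caffeine, against 8.46 to 13.9 CPM without (log2 fold change 1.31 ± 0.15, adjusted p = 2.36e-07). STE2, the alpha-factor receptor, had 5.78 to 27.1 CPM in caffeine and 1.87 to 4.11 CPM without. No library with caffeine overlapped one without for either gene, although the levels remained low. Other a-cell genes were near 0, with AGA2 at 0.648 to 1.89 CPM in caffeine and 0 to 0.481 CPM without. MFA2 was at 0.0963 to 3.53 CPM in caffeine and 0 to 0.364 CPM without. ASG7 overlapped, at 1.35 to 3.78 CPM in caffeine and 0.963 to 3.62 CPM without. The list's median of 2.44 thus includes genes with very few counts. Of 4 alpha-cell genes 3 fell and 0 rose, with STE3, the a-factor receptor, at 70.8 to 224 CPM in caffeine and 251 to 426 CPM without, and MF(ALPHA)1 lower (log2 fold change -0.67 ± 0.10, adjusted p = 6.6e-06). Of 5 haploid genes 2 rose, among them STE5 (log2 fold change 0.46 ± 0.08, adjusted p = 6.75e-05), and 3 fell, among them STE4 (log2 fold change -0.55 ± 0.09, adjusted p = 3.31e-05) and GPA1 (log2 fold change -0.38 ± 0.08, adjusted p = 0.000295). Of 4 meiosis genes 3 rose, with NDT80 in the core (log2 fold change 0.96 ± 0.10, adjusted p = 7.59e-08) and IME2 shared (log2 fold change 1.08 ± 0.14, adjusted p = 1.6e-06). In bulk RNA, more cells of another type and more RNA per cell cannot be told apart.

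**Figure D4:**
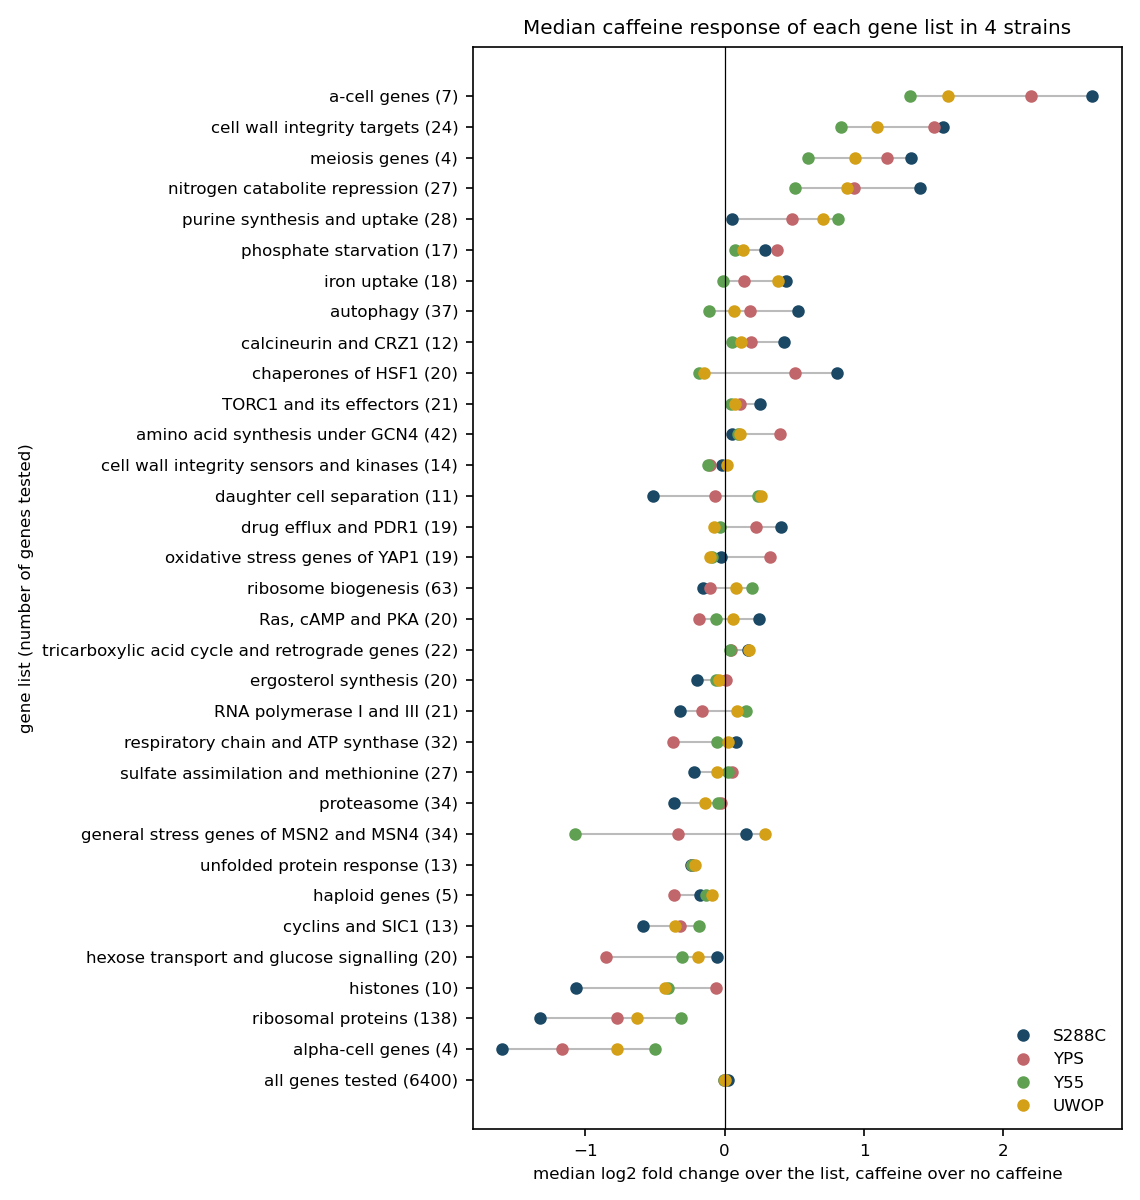
Points give the median log2 fold change of caffeine over no caffeine (x axis) of each gene list (y axis, number of genes tested in brackets) in each strain, and grey lines join the 4 strains. The 4 medians of the a-cell, cell wall integrity target and nitrogen lists are all above 0, those of ribosomal proteins are all below 0, and those of the general stress list run from -1.07 in Y55 to 0.29 in UWOP, while all genes tested are within 0.03 of 0. The interaction was called for 4 of the 34 general stress genes.

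Sharing a direction did not mean sharing a size. The test of a strain by caffeine interaction called 26.4% of the 6400 genes (1690), and it called 799 of the shared genes (26.4%) and 170 of the 493 core genes (34.5%). The count of 1690 was 260 without the S288C libraries, 654 with only S288C and YPS, 1000 without the 4 libraries with URA3 near 0, and 3264 without the 4 libraries that stood apart. Over all 6400 genes, 147 were called higher in 1 strain and lower in another. All 147 were among the 1690, which opposite calls from the same fit make likely in advance. YHB1, a flavohaemoglobin that detoxifies nitric oxide, had 93.6, 90.9 and 112 CPM in S288C, 20.7, 29.97 and 28.1 CPM in YPS, 1281, 1134 and 1452 CPM in Y55 and 1656, 1176 and 1283 CPM in UWOP in caffeine, against 509.7, 608 and 579 CPM in S288C, 4.57, 4.21 and 5.43 CPM in YPS, 1341, 1664 and 1572 CPM in Y55 and 1486, 1446 and 1547 CPM in UWOP without caffeine (interaction adjusted p = 4.62e-10). It was lower in S288C and higher in YPS, and the caffeine libraries of Y55 and UWOP overlapped those without caffeine. PUT4 had log2 fold changes of 2.45 in S288C, -0.70 in YPS, -1.64 in UWOP and -1.30 in Y55 (interaction adjusted p = 6.12e-07), TMA10, a ribosome-associated stress protein, of 1.91 in S288C, -1.22 in YPS, -1.48 in UWOP and -1.58 in Y55 (interaction adjusted p = 0.00337), and the low-affinity iron transporter FET4 of -0.75 in S288C, 2.58 in YPS, 1.37 in UWOP and 0.45 in Y55 (interaction adjusted p = 6.33e-05). With strain as a block YHB1, PUT4 and TMA10 were not called (adjusted p = 0.749, 0.329 and 0.151), and FET4 was called higher (log2 fold change 0.89 ± 0.30, adjusted p = 0.0161) although it was lower in S288C.

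**Figure D5:**
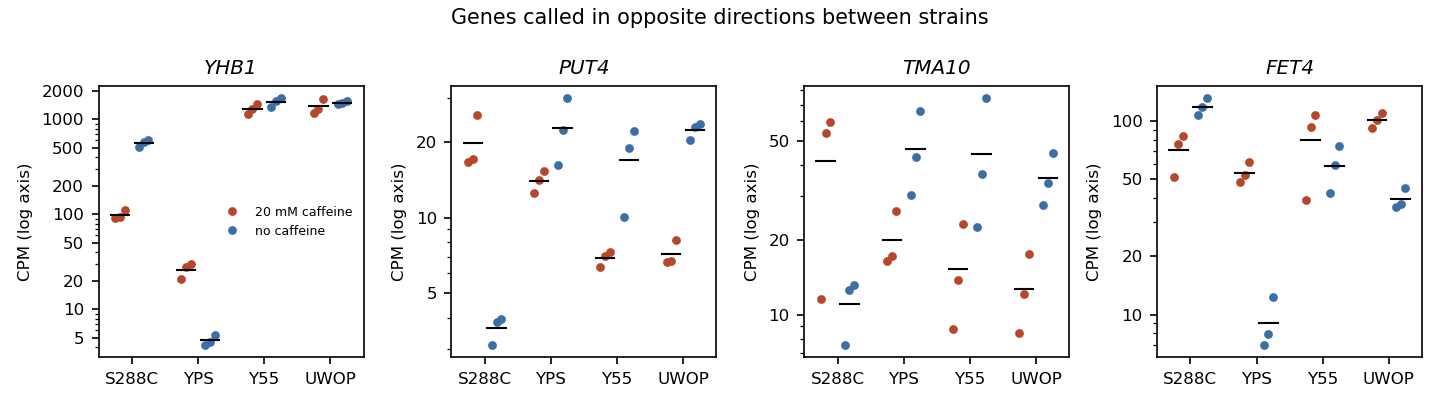
Each point is 1 library and each line the mean of 3, in CPM on a log axis, with caffeine (red) left of no caffeine (blue), for the 4 genes with the largest opposite changes between strains. YHB1 was lower in caffeine in S288C and higher in YPS, where it stood at 20.7 to 30.0 CPM in caffeine and 4.21 to 5.43 CPM without.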

How the data were processed

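Stranded mRNA libraries of 4 strains with and without caffeine, 3 per group, were processed by the authors, whose processing notes name Trimmomatic 0.36 and kallisto 0.44.0 and the genome build R64. The authors deposited, for each library, estimated counts per transcript, which were rounded here to whole numbers (15.7% to 18.5% of values per library were not whole). The deposited TPM values were used only for levels per length, and the deposited effective lengths, in bases, only as an alternative offset. The kallisto strand option is not given in the sources used here, so overlapping and antisense genes cannot be separated, and reads of near-identical copies are divided by estimation. The tables of the whole series were not used here. Sequences were read from the R64 genome.

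Genes were kept by edgeR's filterByExpr over 8 groups and scaled by TMM (6400 of 6713 transcripts, 6026 of them matched to the R64 annotation). edgeR 4.0.16 in R 4.3.3 gave quasi-likelihood tests with Benjamini-Hochberg adjustment at 0.05, with strain as a block, per strain from the 8 groups, per strain from its own 6 libraries (held-out strains), and for the interaction with 3 degrees of freedom. DESeq2 1.42.0 was an alternative. Values after ± are standard errors of the log2 fold change. Scripts were tested on simulated data. Promoters were searched over 500 bases before the start codon, on both strands. Figures were drawn with matplotlib 3.10.9.

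The members and lists were chosen with earlier results of these data known. Named genes were, first, the 12 core genes that rose and the 12 that fell with the largest smallest change over the strains, limited to genes whose mean was 10 CPM or higher, whose count exceeded 3 in every library and was whole in 20 or more of the 24, and whose conditions did not overlap in any strain. To these were added the 3 called genes of each list with the largest change under the same count filters, 11 regulators and pumps whatever their values (TOR1, PDE2, SLT2, RLM1, GCN4, MSN2, MSN4, SFP1, PDR5, SNQ2 and YOR1), the genes on either side of the threshold, and the 4 with the largest opposite changes between strains. Other list members named without a fold change with its error (such as DAL80, STE2 and IMD3) were named after their values were seen, to account for a list's core or falling members. Total estimated counts per library set the precision of low genes, and the closing section gives the effect of the alternatives.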

Additional observations from a re-analysis of the deposited data

Results flagged for a closer look

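Of the 123 named genes, 64 had caffeine responses that differed between strains by the interaction test of edgeR (adjusted p between 4.62e-10 and 0.0444). For 53 of them the log2 fold changes had the same sign in each strain, and for 11 they did not. The values below are the differences between the highest and the lowest of the 4 log2 fold changes of each gene, and for genes that fell the highest is the smallest fall. From S288C (highest) to Y55 (lowest) the difference was 1.64 for SNZ1, 3.38 for YAT1, 1.90 for DLD3, 2.32 for CRC1, 1.30 for SNO1, 2.63 for PDH1, 2.02 for PDE1, 2.10 for MEP2, 2.42 for SRL3, 2.17 for CMK2, 2.08 for RCN1, 4.42 for BTN2, 2.50 for SSA3, 2.99 for PDR10, 1.0 for AUS1, 1.40 for CIT1, 2.05 for RPN4, 1.27 for ATG11 and 1.49 for ATG5. With Y55 highest and S288C lowest it was 2.29 for MF(ALPHA)2, 2.25 for TDH2, 1.59 for FUR1, 1.13 for RAS1, 1.12 for RPL30, 1.02 for RPS22A, 0.90 for NOP16, 0.78 for PUP3, 0.45 for ERG24, 1.0 for MF(ALPHA)1 and 0.94 for STE4. Where YPS was highest and Y55 lowest the values were 3.29 for YOR338W, 1.17 for MCH4, 2.08 for NCW2, 1.24 for GTT2, 0.99 for SUL1, 2.08 for PHM8, 1.51 for SLT2 and 1.12 for RLM1. From S288C (highest) to UWOP (lowest) the difference was 1.76 for HXT2, 0.96 for LST8, 4.38 for CIT2 and 1.25 for STE6. With UWOP highest and S288C lowest it was 1.49 for HIS4, 3.53 for ADE17, 2.21 for DSE2 and 0.60 for SIL1. Where YPS was highest and S288C lowest the values were 1.01 for ILV3, 0.96 for SOD1 and 0.67 for CLN1. From UWOP (highest) to YPS (lowest) the difference was 2.04 for CHA1. With S288C highest and YPS lowest it was 0.34 for NPR1. Where Y55 was highest and YPS lowest the values were 0.83 for NOP1. From UWOP (highest) to Y55 (lowest) the difference was 1.09 for ADR1. Among the genes whose sign was not the same in each strain, the differences were 1.33 for WSC3 (S288C highest, YPS lowest), 2.13 for PMC1 (S288C highest, Y55 lowest), 3.77 for SSA4 (S288C highest, Y55 lowest), 1.11 for HHO1 (YPS highest, S288C lowest), 2.11 for CTS1 (UWOP highest, S288C lowest), 1.92 for DSE1 (UWOP highest, S288C lowest), 0.80 for PDR5 (S288C highest, UWOP lowest), 4.98 for YHB1 (YPS highest, S288C lowest), 4.09 for PUT4 (S288C highest, UWOP lowest), 3.49 for TMA10 (S288C highest, Y55 lowest) and 3.33 for FET4 (YPS highest, S288C lowest). The groups have 3 libraries each, so single libraries were not tested for distance from their group.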

How the results depend on the processing

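The strain-block count of 3687 genes and the 3027 shared genes stayed within 1.5 times under DESeq2, RLE scaling, no filter, length offsets, an adjusted p under 0.01 and each left-out strain. RLE scaling moved the median of all genes by 0.01 with strain as a block. Requiring a 2-fold change gave 540 genes with strain as a block (79.8% higher, against 51.1% without it), 480 shared (384 higher and 96 lower), 108 core (90.7% higher, against 64.7%), 1057 in S288C, 652 in YPS, 230 in Y55 and 410 in UWOP. At an adjusted p under 0.01 the core had 228 genes, the interaction 846, Y55 410 and UWOP 947. The core had 1120 genes (57.6% higher) without Y55. The interaction called 260 genes without S288C. With only a strain's own libraries Y55 had 117 called genes and UWOP 2796. Genes higher in S288C and YPS were called higher in held-out Y55 in 3.87% of cases at 0.01 and 17.2% under DESeq2, and lower genes in 8.47% under DESeq2.

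Some alternatives were chosen after seeing the data. With only S288C and YPS the core had 1733 genes and the interaction 654. Without the 4 libraries that stood apart the core had 920 genes (476 higher and 444 lower), the interaction 3264, Y55 1974 and UWOP 2695. With Y55 and UWOP as 1 strain the core had 1228 genes (50.5% higher). Without the 4 Y55 and UWOP libraries with URA3 near 0 the core had 171 genes, the interaction 1000, Y55 315 and UWOP 795. Leaving out single libraries gave 3535 to 3788 genes with strain as a block, 2823 to 3088 shared, 279 to 596 core (lowest without Y55 library 47, highest without Y55 library 39), 1169 to 2193 in the interaction, 2920 to 3403 in S288C, 2000 to 2867 in YPS, 483 to 1118 in Y55 and 1217 to 1375 in UWOP. The causes were not tested.

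Of the 116 named genes called with strain as a block, the direction was kept throughout and 17 lost the call under some alternative, and 5 genes not called gained it. TOR1, SSA4 and YHR217C were among the 17. Without the strain term the calls of NOP1, NOP16, CYC1, DSE1, DSE2, CTS1, FIT2, PHO8, MSN2, SFP1, SNQ2 and FET4 were lost. Some calls also depended on a single strain. Those of NOP16, PHO8, MSN2 and SNQ2 were lost without S288C. Those of WSC3, FIT3, PHO8, MSN2, SNQ2 and FET4 were lost without YPS, and those of DSE1, FIT3 and FET4 without UWOP. SNQ2 and FET4 also lost their calls without the Y55 and UWOP libraries with URA3 near 0. Each library number is used once, but the numbers form 3 runs of 8 with 1 library of every group. With the runs as a replicate block 3634 genes were called with strain as a block, 3042 were shared, 474 core and 1627 in the interaction, YHR217C lost its call (adjusted p = 0.0622 in edgeR) and LSM2 gained one (adjusted p = 0.0341). The deviations of caffeine and no caffeine libraries of 1 strain and run correlated at -0.30 to 0.06 over the genes, above 0.1 in 0 of 12 pairs, so the runs were not taken as pairing.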
